A study of Mus musculus with 12 samples.

Results

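The transcripts of 10 genes that write, copy, guard or erase DNA methylation were followed in mouse testis after the long non-coding RNA lncRNA5251 was knocked down or overexpressed. They were taken by symbol (Dnmt1, Dnmt3a, Dnmt3b, Dnmt3l, Uhrf1, Tet1, Tet2, Tet3, Tdg and Zfp57) from an expression table of 20718 genes, and all 10 were found in it. None of the 10 was called different in its transcript level, after knockdown or after overexpression, at a Benjamini-Hochberg adjusted p under 0.05 in edgeR's quasi-likelihood test. The largest difference was in Dnmt3l, whose level in 2 of the 3 F0_5NC control libraries lay below every other library, and it did not pass the adjustment. Of 53 tested partner genes of the pathway, 1 was called in any comparison, Mat2a, the synthetase that makes the methyl donor S-adenosylmethionine. That call was between the viral vectors, where 0.706% of all genes were called.

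DNA methyltransferases attach a methyl group to cytosine, mostly where a cytosine is followed by a guanine (CpG). DNMT3A and DNMT3B set new methylation with the catalytically inactive partner DNMT3L, and DNMT1, recruited to newly replicated DNA by UHRF1, copies the pattern to the daughter strand. TET enzymes oxidise the methyl group, TDG cuts out the oxidised base for repair, and ZFP57 holds methylation at imprinted regions while the rest of the genome is reset. In the male germ line the bulk of de novo methylation is laid down in fetal prospermatogonia, with DNMT3L required for it, and the adult testis carries it through mitotic and meiotic divisions.

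The 12 libraries form 4 groups of 3, all of testis of F0 mice, whose strain the labels spell IRC mouse and the study's methods ICR. Males were injected in the testes with lentivirus at 4 weeks of age, mated at 9 weeks for 4 days, and collected 4 days later. F0_3NC received the control virus on the LV3 backbone and F0_5251KD a mixture of 3 LV3 viruses, each with 1 short hairpin RNA (shRNA) against lncRNA5251, so that the animals of both groups carry LV3. F0_5NC received the empty LV5 vector and F0_5251OV the same vector with full-length lncRNA5251, so both carry LV5. Every group had been injected with a virus, and no uninjected testis was analysed here. The whole testis was sequenced, and how many cells took up virus was not analysed here. Separate animals are not named for the replicates in the labels, so p-values reflect how far libraries of a group differ, which may be technical in part.

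Libraries held 15431383 to 16355720 estimated counts, with 18615 to 18728 genes at 1 count or more. No gene of the table carries the name lncRNA5251. All 3 knockdown sequences match the transcript of Purb at every base, and the level of Purb was 8.61 to 9.72 RPKM (reads scaled by transcript length and library total) in F0_5251KD against 8.67 to 11.1 RPKM in F0_3NC (log2 fold change -0.11, SE 0.09, edgeR adjusted p 0.897), and 8.15 to 9.61 RPKM in F0_5251OV against 8.02 to 9.65 RPKM in F0_5NC (0.04, SE 0.09, adjusted p 0.907). The level of lncRNA5251 itself could therefore not be read from this table. Marker lists fixed for testis cell types had reads in every library, with summed levels of 34228 to 42778 RPKM for 6 elongated spermatid markers and 50.4 to 72.1 RPKM for 8 spermatogonial markers. Of the latter, 3 (Zbtb16, Sall4 and Nanos3) were at a median under 1 RPKM. So were Amh of the Sertoli cell markers, Cd163 of the macrophage markers and 3 of 5 endothelial markers. F0_5NC replicate 1 stood apart, with the highest sums of 12 for 8 Sertoli cell markers (777 RPKM, others 367 to 510), for 6 Leydig cell markers (4362 RPKM, others 1697 to 3782) and for 5 macrophage markers (23.5 RPKM, others 13 to 18.6). It also had the highest sums for 8 spermatogonial markers (72.1 RPKM, others 50.4 to 62.8) and 5 endothelial markers (8.19 RPKM, others 5.53 to 7.9). Its sum for 6 round spermatid markers was the lowest (994 RPKM, others 1074 to 1171). Of 5 epididymal markers 4 were in the table, 1 of them at a median under 1 RPKM, and their sum was 1.98 to 9.82 RPKM in the 6 LV3 libraries and 5.71 to 104 RPKM in the 6 LV5 libraries. The longest exact run of bases that any of the 3 knockdown sequences of 21 bases shares with 101 annotated transcripts of the 10 genes was 5 to 10 bases, and matches with mismatches were not searched.

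The genes that set methylation are themselves under promoters of widely different CpG content, and 3 of their sequences are shown here. CpG is the site that DNA methyltransferases mostly use, but methylation of these windows was not measured. RefSeq promoter windows of 300 bases (250 before and 50 after an annotated start, build GRCm38.p6) were matched by gene ID to all 10 genes, 19 windows in all. They do not reach the 5′ end of every gene. The Tet3 window (chr6:83441629-83441928, minus strand) lies inside the gene, which runs to 83457208. The median window held 17 CpGs, against 7 over 32851 windows of 27025 genes. Tet2 stood at the upper end with 57 CpGs, more than or equal to 99.9% of windows, and Dnmt3a followed with 46, 47 and 18 in its windows. Dnmt3l with 6, 4 and 3 CpGs and Zfp57 with 6, 9 and 4 were the only members without a window above 9, though the lowest single window, with 2, is one of Dnmt1, whose others hold 33 and 12. The most 5′ windows, rather than those with fewest CpGs, are shown for both genes. The windows at the 5′ end of Dnmt3l (chr10:78042037-78042336, plus strand) and of Zfp57 (chr17:37000913-37001212, plus strand) and that of Tet2 (chr3:133544341-133544640, minus strand) are printed 5′ to 3′ along the gene, with each CpG in capitals.
Dnmt3l: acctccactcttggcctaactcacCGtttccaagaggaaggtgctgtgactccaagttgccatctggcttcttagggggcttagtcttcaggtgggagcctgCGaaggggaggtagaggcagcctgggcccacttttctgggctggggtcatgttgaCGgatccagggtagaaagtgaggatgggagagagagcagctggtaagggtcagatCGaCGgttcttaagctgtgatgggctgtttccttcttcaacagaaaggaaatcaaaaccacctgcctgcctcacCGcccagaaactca
Zfp57: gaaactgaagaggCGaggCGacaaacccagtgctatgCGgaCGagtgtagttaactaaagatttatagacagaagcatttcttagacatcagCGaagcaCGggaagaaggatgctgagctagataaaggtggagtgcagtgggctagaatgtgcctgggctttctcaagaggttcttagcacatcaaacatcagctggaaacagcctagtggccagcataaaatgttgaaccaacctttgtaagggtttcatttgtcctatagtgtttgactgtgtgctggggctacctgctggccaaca
Tet2: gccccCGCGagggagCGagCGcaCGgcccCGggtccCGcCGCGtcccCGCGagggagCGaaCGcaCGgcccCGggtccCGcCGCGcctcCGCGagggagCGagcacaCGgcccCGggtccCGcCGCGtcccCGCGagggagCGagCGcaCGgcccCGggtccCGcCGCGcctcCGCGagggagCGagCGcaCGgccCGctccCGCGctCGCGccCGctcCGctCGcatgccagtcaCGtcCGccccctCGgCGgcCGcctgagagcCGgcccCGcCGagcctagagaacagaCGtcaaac

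**Figure D1:**
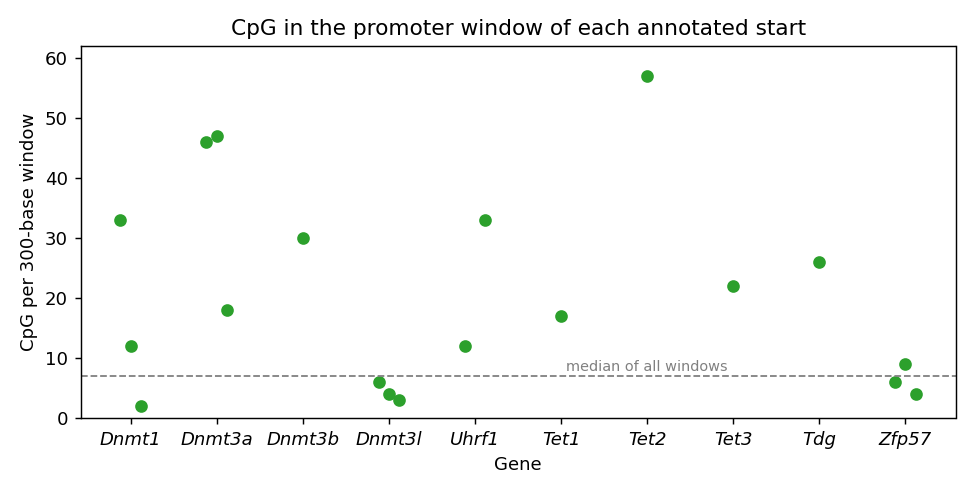
CpG dinucleotides (vertical axis, number per 300-base window) in the RefSeq promoter windows matched to the 10 genes, 1 point per window. The dashed line is the median of all windows, 7, and all windows of Dnmt3l lie below it while the Tet2 window, at 57, is highest.

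Promoter windows of the maintenance pair Dnmt1 and Uhrf1 were the only ones of the 10 genes with a motif of the E2F family, factors that switch on genes of DNA replication. The letters searched on both strands were TTTCGCGC, TTTGGCGC and TTTCCCGC, of which TTTCCCGC can share bases with a GC box, and 1.84% of all windows hold one. The Dnmt1 window with 33 CpGs (chr9:20952574-20952873, minus strand) has 2 matches and the Uhrf1 window with 33 CpGs (chr17:56304063-56304362, plus strand) has 1. A cyclic AMP response element (TGACGTCA) was found in the Tdg window (chr10:82629588-82629887, plus strand) and in 1.79% of all windows. The matches are shown in capitals with their flanks, read 5′ to 3′ along the gene.
Dnmt1, first match: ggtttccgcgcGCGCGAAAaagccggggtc
Dnmt1, second match: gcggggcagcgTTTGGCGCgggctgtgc
Uhrf1: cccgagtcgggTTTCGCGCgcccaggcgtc
Tdg: cccacaaaagcTGACGTCAgccgggcgctc
On either strand, a GC box (GGGCGG) was present in 1 or more windows of 8 of the 10 genes. A CCAAT box (CCAAT) was so for 5 genes and a TATA box (TATAAA) for Zfp57 alone. Of all single windows, 35.7%, 37.4% and 13.6% hold these motifs. The former are counts of genes, several with more than 1 window, so they cannot be set against the shares of windows. The Zfp57 match reads TTTATA along the gene, which is TATAAA on the opposite strand. These are matches of letters, and no binding was measured.

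Per transcript length, maintenance genes stood above de novo enzymes, and the TET family was lowest. Uhrf1 had the highest level of the 10 (median 26.1 RPKM, range 24.4 to 28.2 over 12 libraries), above Zfp57 (18.2, 16.8 to 21.1) and Dnmt1 (9.90, 8.71 to 11.2), and the ranges of these 3 do not overlap. Dnmt3l (6.09, 2.60 to 8.0) lay above Tdg (3.25, 2.65 to 3.96) in the median, but their ranges overlap. Dnmt3a (1.86, 1.62 to 2.09) and Dnmt3b (1.81, 1.59 to 2.33) cannot be put in an order. Tet3 (0.64, 0.55 to 1.07) and Tet2 (0.41, 0.31 to 0.71) overlap as well, and Tet1 was lowest (0.07, 0.04 to 0.09), with 9 to 19 counts per library. Among all genes of the table these mean levels ran from percentile 13.5 for Tet1 to percentile 82.1 for Uhrf1.

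**Figure D2:**
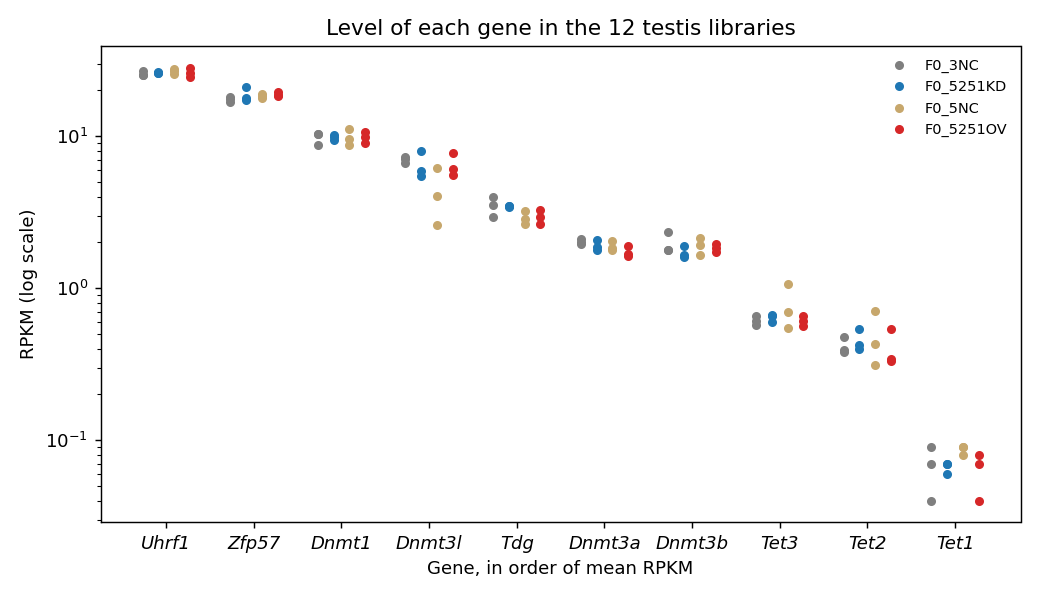
Level of each of the 10 genes (vertical axis, RPKM on a log scale) in each of the 12 testis libraries, 1 point per library, coloured by group, with genes in order of mean level. Uhrf1 is highest at 24.4 to 28.2 RPKM and Tet1 lowest at 0.04 to 0.09 RPKM, and 2 F0_5NC points of Dnmt3l lie below all its others.

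Ratios between partners within a library varied most, of those computed, for Dnmt3l over Dnmt3a. Uhrf1 was at 2.29 to 3.17 times Dnmt1 in RPKM, and Dnmt1 made up 67.1% to 74.7% of the summed RPKM of Dnmt1, Dnmt3a and Dnmt3b. Dnmt3b was at 0.764 to 1.19 times Dnmt3a (mean 0.991, SD 0.127), the 2 de novo enzymes. Dnmt3l was at 1.42 to 4.49 times Dnmt3a (mean 3.23, SD 0.859), with both lowest ratios (1.98 and 1.42) in F0_5NC. Tet3 made up 49.6% to 60.2% of the summed TET RPKM. The 3 methyltransferases together were at 8.25 to 14.7 times the 3 TET genes, lowest in F0_5NC replicate 1.

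Libraries of the same group differed from each other to unlike degrees among the 10 genes. The within-group SD of log2 CPM (counts scaled by library total and TMM factor, used below to set 1 gene side by side between libraries) was 0.08 for Dnmt3a, 0.09 for Uhrf1 and 0.10 for Zfp57, below the median of 0.17 over 16297 genes tested. It was 0.33 for Dnmt3l and 0.32 for Tet2, at percentiles 88.6 and 87.1 of tested genes. The same difference in means is therefore resolved better for Uhrf1 than for Dnmt3l or Tet2.

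Dnmt1 (gene ID 13433, chr9:20907206-20959888 on GRCm38.p6, minus strand) encodes the maintenance methyltransferase. It was at 53.25, 55.6 and 52.2 CPM in F0_5251KD against 57.0, 47.8 and 57.9 in F0_3NC, and 48.9, 59.5 and 55.9 in F0_5251OV against 56.6, 53.6 and 47.2 in F0_5NC. All 4 groups overlap. The log2 fold change was -0.01 (SE 0.10, 95% interval -0.23 to 0.20) after knockdown and 0.06 (SE 0.10, -0.16 to 0.28) after overexpression, each against the control of its own vector.

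Uhrf1 (gene ID 18140, chr17:56303337-56323486, plus strand) encodes the reader of hemimethylated CpGs that brings DNMT1 to them. Its CPM was 85.0, 86.5 and 86.5 in F0_5251KD against 84.7, 82.8 and 90.2 in F0_3NC, and 80.5, 94.3 and 88.5 in F0_5251OV against 78.6, 91.0 and 91.2 in F0_5NC. These values overlap in all groups, and those of F0_5251KD lie closest together. Its log2 fold change was 0.00 (SE 0.08, -0.17 to 0.17) after knockdown, an interval that as a ratio runs from 0.89 to 1.13, and 0.01 (SE 0.08, -0.16 to 0.19) after overexpression, where the sign changed under upper-quartile scaling and with limma on RPKM.

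Of the de novo enzymes, Dnmt3a (gene ID 13435, chr12:3801559-3914443, plus strand) was at 19.4, 17.1 and 17.9 CPM in F0_5251KD against 19.9, 18.2 and 19.0 in F0_3NC, and 15.4, 16.5 and 18.2 in F0_5251OV against 17.7, 17.5 and 17.1 in F0_5NC. The 3 F0_3NC libraries lie above the 3 F0_5NC libraries without overlap, while each lncRNA5251 group overlaps its control. After knockdown the log2 fold change was -0.07 (SE 0.10, -0.28 to 0.14), and after overexpression -0.06 (SE 0.10, -0.27 to 0.15). An antisense transcript, Dnmt3aos, overlaps 0.799% of its exon bases.

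Dnmt3b (gene ID 13436, chr2:153649411-153687730, plus strand), its paralog, was at 6.29, 6.74 and 7.54 CPM in F0_5251KD against 7.22, 9.18 and 7.20 in F0_3NC, and 6.96, 7.70 and 7.43 in F0_5251OV against 7.97, 6.81 and 7.68 in F0_5NC. All groups overlap, though 2 of the 3 knockdown libraries are the lowest of the 12. Its difference after knockdown was the most negative of the 10 genes, -0.20 (SE 0.14, -0.50 to 0.10), with an interval that includes 0, and after overexpression it was -0.02 (SE 0.14, -0.32 to 0.27). That place rests on F0_3NC replicate 2, the highest of the 12: without it the knockdown difference was -0.072, and Tet1 (-0.111), Dnmt3a (-0.101), Dnmt3l (-0.101) and Dnmt1 (-0.097) were more negative.

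Dnmt3l (gene ID 54427, chr10:78042287-78063622, plus strand) encodes the cofactor without enzyme activity that stimulates DNMT3A in germ cells. It was at 7.05, 9.92 and 6.77 CPM in F0_5251KD against 8.05, 8.70 and 8.92 in F0_3NC, and 7.27, 6.92 and 9.89 in F0_5251OV against 4.49, 3.37 and 7.42 in F0_5NC. F0_5NC replicates 1 and 2 are the lowest of the 12 libraries, F0_5NC replicate 3 lies within the F0_5251OV range, and the F0_3NC and F0_5NC groups do not overlap. In edgeR the log2 fold change was -0.11 (SE 0.24, -0.63 to 0.41) after knockdown and 0.65 (SE 0.25, 0.12 to 1.19) after overexpression, the latter with an unadjusted p of 0.0209 and an adjusted p of 0.552. Between the control viruses, which share the F0_5NC libraries with that comparison, it was 0.75 (SE 0.25, 0.21 to 1.28, unadjusted p of 0.01, adjusted p 0.311), higher in F0_3NC. Both values rest on F0_5NC: without its replicate 2 they were 0.43 and 0.52, without its replicate 3 they were 1.03 and 1.12. The overexpression value also rests on F0_5251OV replicate 3, without which it was 0.476. Epididymal marker sums were 18.7, 104 and 95.4 RPKM in F0_5NC replicates 1, 2 and 3, Sertoli sums 777, 483 and 487 RPKM, and their part in the Dnmt3l level was not tested. In bulk tissue, fewer cells that hold a transcript and less of it per cell cannot be told apart. Of the exon bases of Dnmt3l, 2.24% overlap Aire on the opposite strand, and as marking of the strand is not stated, reads there cannot be assigned.

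The TET dioxygenases begin active demethylation. Tet1 (gene ID 52463, chr10:62804570-62887469, minus strand) was at 0.76, 0.91 and 0.96 CPM in F0_5251KD against 0.77, 0.61 and 1.12 in F0_3NC, and 1.13, 0.91 and 0.58 in F0_5251OV against 1.08, 1.12 and 1.22 in F0_5NC. These are few reads and the intervals are wide, as the log2 fold change was 0.07 (SE 0.33, -0.64 to 0.78) after knockdown and -0.38 (SE 0.32, -1.06 to 0.31) after overexpression. The latter was -0.603 without F0_5251OV replicate 1 and -0.155 without F0_5251OV replicate 3. Tet2 (gene ID 214133, chr3:133463677-133545136, minus strand) was at 4.77, 3.63 and 3.83 CPM in F0_5251KD against 3.54, 4.32 and 3.50 in F0_3NC, and 4.89, 3.07 and 3.04 in F0_5251OV against 5.93, 2.84 and 3.90 in F0_5NC. One library of each LV5 group holds the highest values of the 12, and all groups overlap. The log2 fold change of Tet2 was 0.10 (SE 0.27, -0.47 to 0.68) after knockdown and -0.21 (SE 0.27, -0.78 to 0.37) after overexpression, the latter changing to 0.12 without F0_5NC replicate 1.

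Tet3 (gene ID 194388, chr6:83362373-83457208, minus strand), the most abundant TET transcript here, was at 6.42, 7.26 and 7.34 CPM in F0_5251KD against 6.25, 7.30 and 6.74 in F0_3NC, and 7.15, 7.05 and 6.27 in F0_5251OV against 10.9, 6.21 and 7.61 in F0_5NC. F0_5NC replicate 1 is again the highest of the 12, and the other 11 lie between 6.21 and 7.61. That library also had the highest Sertoli, Leydig, macrophage, endothelial and spermatogonial marker sums and the lowest round spermatid sum. The part of these cells in the Tet3 level was not tested. Tet3 differed by 0.05 (SE 0.18, -0.34 to 0.44) after knockdown and by -0.28 (SE 0.18, -0.66 to 0.11) after overexpression. Without F0_5NC replicate 1 the second value was -0.02.

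Tdg (gene ID 21665, chr10:82629814-82650799, plus strand) encodes the glycosylase that removes oxidised methylcytosine. Its CPM was 10.2, 9.98 and 10.4 in F0_5251KD against 8.89, 11.6 and 10.8 in F0_3NC, and 9.84, 8.81 and 8.21 in F0_5251OV against 8.99, 8.72 and 7.80 in F0_5NC. The lncRNA5251 groups overlap their controls, while 5 of the 6 LV3 libraries lie above all 6 LV5 libraries. Fitted on all libraries, the log2 fold change was -0.03 (SE 0.13, -0.30 to 0.24) after knockdown, 0.07 (SE 0.13, -0.20 to 0.35) after overexpression, 0.29 (SE 0.13, 0.02 to 0.56, unadjusted p of 0.0391, adjusted p 0.405) in F0_3NC vs F0_5NC, and 0.24 (SE 0.09, 0.04 to 0.43, unadjusted p of 0.0195, adjusted p 0.631) between the 6 LV3 and the 6 LV5 libraries. Counts of Tdg were not whole in 100% of libraries, as where reads are shared out between copies, and 69.2% of the 31-base words of Tdg-ps (gene ID 545124) are found in Tdg transcripts. With both summed, a setting chosen after the values were seen, the last difference was again 0.24 (SE 0.08, unadjusted p of 0.0142, adjusted p 0.55). A further 6.83% of Tdg exon bases overlap Glt8d2 on the opposite strand.

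Zfp57 (gene ID 22715, chr17:37001163-37010729, plus strand) encodes the zinc finger protein that keeps imprinted regions methylated. It was at 29.5, 37.2 and 31.6 CPM in F0_5251KD against 33.1, 31.8 and 30.65 in F0_3NC, and 33.7, 32.2 and 36.2 in F0_5251OV against 31.3, 32.8 and 32.9 in F0_5NC. The groups overlap, and 1 knockdown library is the highest of the 12. The log2 fold change was 0.04 (SE 0.10, -0.17 to 0.25) after knockdown and 0.07 (SE 0.10, -0.13 to 0.28) after overexpression.

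Read against all 16297 genes tested, the 10 genes did not stand out. In F0_5251KD vs F0_3NC edgeR called 0 of 10 (adjusted p 0.897 to 0.999), where 0.0245% of all genes were called. An unadjusted p under 0.05 was met by 0 of 10 and 4.74% of all genes, and 0 of 10 had groups that do not overlap, against 11.8%. The median absolute log2 fold change was 0.06 over the 10 genes and 0.11 over all genes. In F0_5251OV vs F0_5NC, 0 of 10 were called (adjusted p 0.552 to 0.968) and 0% of all genes, 1 of 10 (Dnmt3l) had an unadjusted p under 0.05 against 8.77%, 0 of 10 had groups without overlap against 13.9%, and the median absolute log2 fold change was 0.07 against 0.13. DESeq2 and limma called 0 of 10 in either comparison as well.

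**Figure D3:**
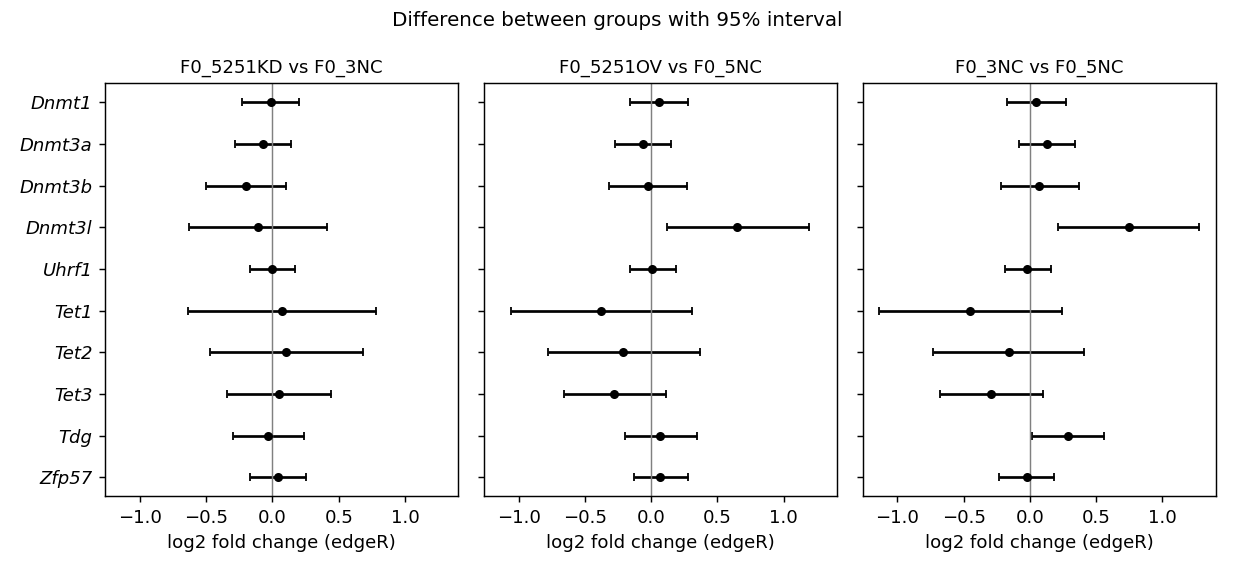
The log2 fold change of each of the 10 genes (points) with its 95% interval (bars) from edgeR, in knockdown, in overexpression and between the 2 control viruses, with 0 marked by a line. All 10 intervals in the knockdown panel include 0, and Dnmt3l lies at 0.65 and 0.75 in the other 2 panels, which share the F0_5NC libraries.

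Whether knockdown and overexpression acted differently was tested as the difference of both effects. Of the 10 genes 0 were called, as were 0% of all genes, and 1 of 10 against 11.3% had an unadjusted p under 0.05. That was Dnmt3l at -0.77 (SE 0.35, -1.52 to -0.02, unadjusted p of 0.0454, adjusted p 0.441). For Tet1 the difference of effects was 0.45 (SE 0.46, -0.54 to 1.44).

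The control viruses differed more from each other than either lncRNA5251 group differed from its control, by the number of genes called. In F0_3NC vs F0_5NC, edgeR called 0 of the 10 genes (adjusted p 0.311 to 0.938) and 0.331% of all genes. Unadjusted, 2 of 10 (Dnmt3l and Tdg) passed against 11.9%, and 2 of 10 (Dnmt3a and Dnmt3l) did not overlap against 17%. The log2 fold change of the writers was 0.05 (SE 0.10) for Dnmt1, 0.13 (SE 0.10) for Dnmt3a and 0.07 (SE 0.14) for Dnmt3b, while Uhrf1 stood at -0.02 (SE 0.08) and Zfp57 at -0.02 (SE 0.10). All TET genes were lower in F0_3NC in the fitted value, at -0.45 (SE 0.32) for Tet1, -0.16 (SE 0.27) for Tet2 and -0.29 (SE 0.18) for Tet3, with intervals that include 0. Without F0_5NC replicate 1 these became 0.16 for Tet2 and -0.04 for Tet3.

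Taking all 6 LV3 libraries against all 6 LV5 libraries, 0 of the 10 genes were called and 0.706% of all genes, 1 of 10 (Tdg) against 6.34% had an unadjusted p under 0.05, and 0 of 10 against 0.749% did not overlap. Beside Tdg, the log2 fold changes closest to the threshold were 0.36 (SE 0.17, unadjusted p of 0.0563) for Dnmt3l and 0.13 (SE 0.07, unadjusted p of 0.0883) for Dnmt3a, and Tet1 was at -0.22 (SE 0.23). The vector and anything else that followed it cannot be told apart in this design.

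Partners of the 10 genes were covered by 7 lists of 57 gene symbols, of which 55 were in the table and 53 passed the filter on low counts. The symbols Dnmt3c and Gm14490, listed for de novo methylation, were not in the table. In knockdown 0 of 53 were called, against 0.0245% of all genes, and 2 of 53 had an unadjusted p under 0.05, against 4.74%. Fitted values were higher for 23 of the 53 and lower for 30, with a median log2 fold change of -0.03. In overexpression 0 of 53 were called, against 0% of all genes, and 4 of 53 had an unadjusted p under 0.05, against 8.77%. There 15 were higher and 38 lower in the fitted value, with a median of -0.05, and over all genes both medians were -0.00. Markers of somatic cells were lower in the same comparison in the fitted value, without a call: 8 of 8 for Sertoli cells (median -0.31, 4 at an unadjusted p under 0.05), 6 of 6 for Leydig cells (-0.29, 1), 4 of 4 for smooth muscle (-0.42, 3), 5 of 5 for endothelium (-0.10, 1), 4 of 5 for macrophages (-0.48, 1) and 3 of 3 tested for red cells (-1.92, 2). F0_5NC replicate 1 had the highest sums of the 12 libraries for Sertoli, Leydig, endothelial and macrophage markers. Macrophage sums were 23.5, 14.3 and 14.8 RPKM in F0_5NC against 15.8, 14.5 and 13 in F0_5251OV. Smooth muscle sums were 38.9, 30.9 and 35.5 RPKM against 22.3, 27.8 and 24.7. Medians of the marker and partner lists were not computed without that library. The part of these cells in the partners' values was not tested. The maintenance partners Pcna, the sliding clamp of replication, and Hells, a chromatin remodeller, differed by -0.08 (SE 0.07) and -0.23 (SE 0.16) after knockdown, and by 0.09 (SE 0.07) and 0.11 (SE 0.16) after overexpression. Trim28, the corepressor that ZFP57 recruits, differed by 0.07 (SE 0.09) and -0.02 (SE 0.09). Among de novo partners, Spocd1 and Tex15, which direct methylation to transposons through the piRNA pathway, were at medians of 2.18 and 17.9 RPKM, and Tex15 had the smallest p of the genes with a negative difference of effects (-0.38, SE 0.20, unadjusted p of 0.0734), at -0.224 without F0_5251OV replicate 1 and -0.246 without F0_3NC replicate 2.

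Mat2a (gene ID 232087) was the 1 partner of 53 called, between the vectors, where 0.706% of all genes were called. In that comparison 3 of 53 partners were higher and 1 lower at an unadjusted p under 0.05 in edgeR, against 6.34% of all genes. Mat2a was at 182, 145 and 198 CPM in F0_5251KD against 180, 200.2 and 169 in F0_3NC, and 126, 117 and 124 in F0_5251OV against 140, 129.9 and 119 in F0_5NC. Between the vectors, 0.749% of all genes have groups that do not overlap. For Mat2a every LV3 library lies above every LV5 library, with 144.52 as the lowest of the former and 139.57 as the highest of the latter. Over 6 against 6 libraries the log2 fold change was 0.51 (SE 0.08, 0.34 to 0.67, unadjusted p of 1.35e-05, adjusted p 0.00452), higher with LV3, and it stayed called under all 21 alternative settings run, with adjusted p from 3.91e-07 in DESeq2 to 0.0251 in limma on log2(RPKM + 1). Within the controls alone it was 0.50 (SE 0.11, adjusted p 0.092), called by DESeq2 (adjusted p 0.0067) and by no other setting, whose highest adjusted p was 0.291. After knockdown and overexpression it was at -0.07 (SE 0.11, -0.30 to 0.16) and -0.08 (SE 0.11, -0.32 to 0.15) against their own controls. Immediate early genes, which respond quickly to handling or stimulation, moved between the vectors too. There 6 of 6 were called higher in LV3 (median log2 fold change 2.79), against 0.706% of all genes called. This list was chosen with earlier results of these data known, so setting it against that share tests nothing. Between the control viruses alone 5 of the 6 were called higher in F0_3NC, with a median of 1.79. In knockdown against its own control 4 of these 6 were called higher, with a median of 1.03, where 4 genes were called in all. Between the vectors 1 of 4 smooth muscle markers was called higher in LV3 (median 0.25), 2 of 3 tested epididymal markers were called lower (median -3.79), and 3 of 3 tested red cell markers had an unadjusted p under 0.05 without a call (median 1.39). Their part in the Mat2a difference was not tested.

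**Figure D4:**
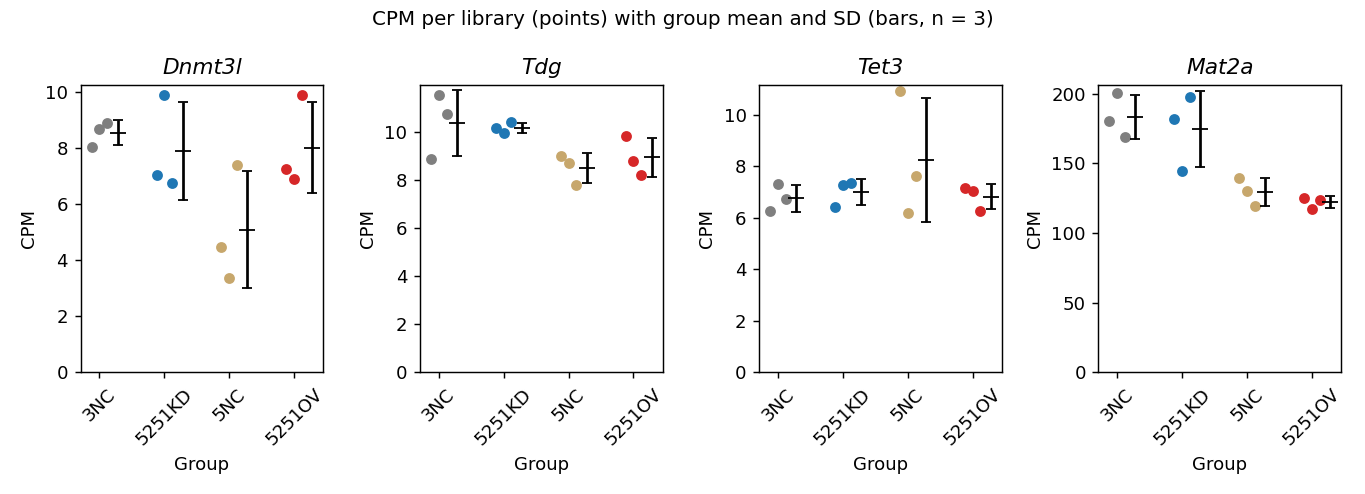
CPM (vertical axes from 0) of Dnmt3l, Tdg, Tet3 and Mat2a in each library (points, by group) with the group mean and SD (bars, n = 3). For Dnmt3l 2 F0_5NC libraries are lowest at 3.37 and 4.49, for Tet3 1 F0_5NC library is highest at 10.9, and for Mat2a all LV3 libraries (F0_3NC and F0_5251KD) lie above all LV5 libraries.

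Of the other partners with the smallest p in a comparison, Idh2, a mitochondrial isocitrate dehydrogenase and thus a source of the 2-oxoglutarate that TET enzymes use, came up in 4 of the 5 comparisons. These 4 are not independent, since they reuse the control libraries and the difference of effects combines knockdown and overexpression. Idh2 was at 7.24, 6.74 and 7.28 CPM in F0_5251KD against 5.48, 4.68 and 3.70 in F0_3NC, and 5.01, 6.40 and 4.98 in F0_5251OV against 8.99, 5.62 and 8.19 in F0_5NC. The knockdown libraries lie above F0_3NC without overlap, and groups of 11.8% of all genes do not overlap there. F0_3NC also lies below F0_5NC without overlap, where the share of all genes is 17%. Its log2 fold change was 0.62 (SE 0.20, unadjusted p of 0.00755, adjusted p 0.897) after knockdown, -0.48 (SE 0.19, unadjusted p of 0.0272, adjusted p 0.552) after overexpression, -0.72 (SE 0.20, unadjusted p of 0.00267, adjusted p 0.22) in F0_3NC vs F0_5NC, and the difference of effects was 1.09 (SE 0.28, unadjusted p of 0.00149, adjusted p 0.373). None of these passed the adjustment. In the difference of effects the fitted values of somatic markers were also mostly higher, 8 of 8 for Sertoli cells (median 0.37), 5 of 6 for Leydig cells (0.52), 4 of 5 for macrophages (0.64), 5 of 5 for endothelium (0.49) and 4 of 4 for smooth muscle (0.58), with 0 called. F0_5NC replicate 1, with the highest Sertoli, Leydig, macrophage and endothelial sums, enters these values. The part of these cells in the Idh2 values was not tested. Others were Zbtb33, a methyl-CpG binding zinc finger protein (-0.38, SE 0.22, unadjusted p of 0.114, in knockdown) and Polb, the gap-filling polymerase of base excision repair (0.16, SE 0.08, unadjusted p of 0.0618, in overexpression, 0.088 without F0_5NC replicate 1).

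For each of the 10 genes the 1 gene of 15167 whose log2 CPM followed it most closely over the 12 libraries was found. It is a description without a test, since libraries share depth, groups and cell composition. Each r is also the highest of 15167 over only 12 libraries, so the selection itself favours high values, and no link between the genes is drawn from them. Pearson's r was 0.97 for Tet2 with Arl5a and 0.93 for Tet3 with Jam2, both highest in F0_5NC replicate 1 (12.3 and 29.2 CPM for the partners). It was 0.96 for Dnmt3a with Kif1a, 0.89 for Dnmt1 with Gstt2, 0.86 for Dnmt3b with Commd10 and 0.91 for Uhrf1 with Anks6. Dnmt3l went with Smim34 (r = 0.90), which was lowest in F0_5NC replicate 2 (0.79 CPM), as Dnmt3l was. Tdg went with Mcl1 (0.92), Zfp57 with 4930431P22Rik (0.92) and Tet1 with Phactr3 (0.81).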

How the data were processed

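Testis RNA of 12 libraries in 4 groups of 3 was analysed. Per the study's methods, polyadenylated RNA was captured on oligo(dT) beads, primed with random hexamers and sequenced, and reads were mapped to reference genes by SOAPaligner (build mm10 per the labels). The table deposited by the authors holds an estimated count for each gene and library, made by a tool that no source used here names, and 12% of them were not whole (tolerance 1e-06). It also holds an RPKM value, which the authors scaled by transcript length and library total. Not used were 18 value columns of other samples and 14 columns of means.

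Estimated counts were rounded and fitted with edgeR 4.0.16 (R 4.3.3, filterByExpr, TMM factors 0.970 to 1.078, quasi-likelihood F test, two-sided, 8 residual degrees of freedom) in 1 model of 4 groups without covariates, with Benjamini-Hochberg adjustment over 16297 genes and a threshold of 0.05. The study named DEGseq with its MARS method, which was not used here. Alternatives were DESeq2 1.42.0, RLE and upper-quartile scaling, other filters (none, or 1 CPM in 3 libraries), limma 3.58.1 on log2(RPKM + 1) and log2(RPKM + 0.1), only the groups compared, the replicate number as a block, and each library left out. The fit was tested on simulated counts. Totals differed by at most 1.06 times between libraries, and intervals reflect the spread between them.

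Partners were named where called or where they had the smallest p in a direction (1 such partner is not reported here), and for each member the gene with the highest Pearson r (mean of at least 1 CPM) was named. Members and lists were chosen with earlier results of these data known. Genes named in addition (Pcna, Hells, Trim28, Spocd1, Ahcy, Gm4737) were chosen after their values were seen. Same-numbered libraries did not deviate together (r -0.242 to 0.161, over 0.1 in 2 of 18 pairs). Promoters, positions and gene IDs are RefSeq GRCm38.p6, transcripts and exon overlaps GENCODE.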

Additional observations from a re-analysis of the deposited data

How the results depend on the processing

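Of the 10 genes, 0 were called in any comparison under any of the 16 alternatives run for each pair of groups or the 21 run for each comparison of all 4 groups. The lowest adjusted p was 0.102, for Dnmt3l in F0_3NC vs F0_5NC without F0_5NC replicate 3. Summing Tdg with Tdg-ps and Ahcy with Gm4737 was chosen after seeing the data. Differences near 0 changed sign. For Dnmt1 after knockdown, limma gave 0.003 on either RPKM scale. For Tdg after knockdown, limma on log2(RPKM + 0.1) gave 0.000. For Uhrf1 after overexpression, upper-quartile scaling gave -0.007, and limma -0.029 and -0.030 with pseudocounts of 1 and 0.1. The cause was not tested.

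Leaving out 1 library at a time, the differences that changed sign ranged as follows. After knockdown the range was -0.097 to 0.035 for Dnmt1, -0.025 to 0.038 for Uhrf1, -0.111 to 0.342 for Tet1, -0.025 to 0.211 for Tet2, -0.007 to 0.110 for Tet3, -0.136 to 0.052 for Tdg and -0.062 to 0.110 for Zfp57. After overexpression it was -0.002 to 0.137 for Dnmt1, -0.089 to 0.022 for Dnmt3b, -0.056 to 0.072 for Uhrf1 and -0.473 to 0.119 for Tet2. In F0_3NC vs F0_5NC it was -0.018 to 0.134 for Dnmt1, -0.052 to 0.138 for Dnmt3b, -0.089 to 0.025 for Uhrf1, -0.378 to 0.163 for Tet2 and -0.050 to 0.003 for Zfp57. None of these was called. Others kept their sign but moved by over 1.5 times. The range was -0.125 to -0.032 for Dnmt3a, -0.275 to -0.072 for Dnmt3b and -0.310 to -0.015 for Dnmt3l after knockdown. After overexpression it was -0.130 to -0.007 for Dnmt3a, 0.432 to 1.030 for Dnmt3l, -0.603 to -0.155 for Tet1, -0.443 to -0.021 for Tet3, 0.000 to 0.132 for Tdg and 0.025 to 0.110 for Zfp57. In F0_3NC vs F0_5NC it was 0.524 to 1.121 for Dnmt3l, -0.718 to -0.261 for Tet1 and -0.455 to -0.036 for Tet3. Tet1 ranged from 0.230 to 0.718 in the difference of effects and from -0.358 to -0.111 between vectors, where Dnmt3l ranged from 0.252 to 0.549.

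With the replicate number as a block, 0 of the 10 genes were called in each comparison, and edgeR called 2, 0, 50, 0 and 89 of all genes in knockdown, overexpression, F0_3NC vs F0_5NC, the difference of effects and LV3 against LV5, against 4, 0, 54, 0 and 115 without it. DESeq2 called 19, 27, 134, 31 and 160. Limma on log2(RPKM + 1) and log2(RPKM + 0.1) called 2 and 0 in knockdown and 73 and 74 between vectors, the former called 1 in the difference of effects, and edgeR called 3 genes in overexpression without a filter or on the groups compared alone. Leaving out 1 library, all genes called numbered 0 to 4, 0 to 1, 30 to 54, 0 to 1 and 77 to 127 in the same order, with 0 in knockdown without F0_3NC replicate 1 or 3 or F0_5251KD replicate 3. Depth limits Tet1 most, at 9 to 19 counts per library.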

Other observations

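Ahcy, the enzyme that clears the S-adenosylhomocysteine left by every methyl transfer, varied more between libraries than any of the 10 genes (0.85 to 17.0 RPKM), and was looked at after this was seen. Its estimated counts were 275, 152 and 646 in F0_5251KD against 332, 33.49 and 198 in F0_3NC, and 219.95, 235 and 232 in F0_5251OV against 122, 95.04 and 259.8 in F0_5NC, a coefficient of variation of 66.1%. Gm4737 (gene ID 11615), of whose 31-base words 93.2% are also in Ahcy transcripts, was at 206, 240.06 and 6.09 in F0_5251KD against 116, 278 and 222 in F0_3NC, and 241, 218 and 236 in F0_5251OV against 334, 239.96 and 219 in F0_5NC. The library with the most Ahcy, F0_5251KD replicate 3, had the least Gm4737. The sum of both was a whole number in each library, 311 to 652 counts, with a coefficient of variation of 19.1%. Before summing, the log2 fold change of Ahcy after knockdown was 0.92 (SE 0.61, edgeR adjusted p 0.897), and after summing it was 0.37 (SE 0.19, -0.03 to 0.77, adjusted p 0.897). Neither value passed the test, and the counts of Ahcy alone are uncertain in every comparison.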
